A study of Rattus norvegicus and Mus musculus with 24 samples.

Results

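The genes described here are 10 transcripts by which fibroblasts, pericytes and myofibroblasts of the kidney are commonly recognised. They are the receptors PDGFRA and PDGFRB, the contractile proteins ACTA2, TAGLN and CNN1, the intermediate filament DES, the matrix proteins DCN, LUM and FBLN1, and the calcium-binding protein S100A4. They were taken by name as a list of markers. All 10 were among the 17376 gene symbols of the mouse table and 9 were among the 14931 symbols of the rat table. ACTA2 was not analysed in rat.

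Between the tubules of the kidney lie fibroblasts and, wrapped around capillaries, pericytes, and both respond to platelet-derived growth factor through its alpha and beta receptors. When the interstitium is activated, such cells can become myofibroblasts, which make contractile filaments of smooth muscle type and deposit collagens, proteoglycans and other matrix proteins. The same contractile genes are active in the smooth muscle of arterioles and the receptors in mesangial cells, so none of these markers belongs to 1 cell type alone. S100A4, also known as fibroblast-specific protein, is made by macrophages and other leukocytes as well.

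CTNS encodes cystinosin, the transporter by which cystine leaves the lysosome, and its loss causes the storage disease cystinosis. RNA was sequenced from kidneys of Ctns KO mice (n = 4) and WT mice (n = 4) on a C57BL/6 background, and of Ctns KO rats (n = 8) and WT rats (n = 8) on a Sprague-Dawley background, all untreated as far as the labels tell, with littermates as controls. The source was labelled kidney cortex in all 24 animals, whereas the cell type was labelled proximal tubule and the labelled protocol names microdissected tubules; the age of the sequenced animals was not given in the sources used here. The rats carried the numbers 17 to 24 and 25 to 32, with 4 KO and 4 WT animals in each range, and what the ranges stand for was not stated, so age, batch or any other difference between them cannot be told apart. Sample titles carried a different prefix in mice than in rats, and what it stands for was not stated. Nothing else in the labels marks separate cultures or preparations, so p-values measure the spread between these samples.

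The libraries held 19309449 to 44449859 reads over the listed symbols in the mice and 24684097 to 40629873 in the rats. In mice CTNS, the targeted gene, had a scaled value (reads over the 75th percentile of its library) of 0.332 ± 0.0102 (SD, n = 4) in KO and 0.918 ± 0.0868 (SD, n = 4) in WT animals (limma adjusted p = 0.000898). In rats CTNS stood at 19.1 ± 1.86 CPM (counts scaled to the effective size of the library; SD, n = 8) in KO and 22.3 ± 2.98 CPM (SD, n = 8) in WT animals, with overlapping groups and an adjusted p of 0.0511 by edgeR. With the number range of the animals as a covariate CTNS was called lower in KO rats, with a log2 difference of -0.22 (edgeR adjusted p = 0.0251), and in rats 25 to 32 alone it was -0.32 (edgeR adjusted p = 0.0391), against -0.11 in rats 17 to 24 (edgeR adjusted p = 0.514). Which part of the gene is missing was not given in the sources used here, and reads from the rest can remain. The labels did not give the sex of the mice, while the paper's reporting summary names only females for its mouse work. KO mouse 3 held 49 reads of XIST against 17581 to 42003 in the other mice. None of 5 listed Y-linked genes had a read in any mouse, so these genes do not tell the mice apart. Because KO mouse 3 stood apart in XIST, limma results without it are given for FBLN1, LUM, DCN, PDGFRA, S100A4, FN1 and EFEMP2. Markers of podocytes, endothelium and distal nephron were all present: UMOD, uromodulin, a gene of the thick ascending limb, had 82021 to 222874 reads in mice and 49061 to 100926 in rats, which does not match tissue of proximal tubules alone. Striated muscle markers were near 0, with CKM at 0 to 1 read in mice and 0 to 3 reads in rats.

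Per length of transcript, ACTA2 and TAGLN led the list in WT mice. RPKM (reads normalised to merged exon length and library total) were 24.05 ± 7.86 (SD, n = 4) for ACTA2, alpha smooth muscle actin, and 22.7 ± 4.27 for TAGLN, the actin-binding protein transgelin, and these neighbours in the order overlapped. PDGFRB followed at 8.22 ± 1.18 RPKM, with a range of 6.89 to 9.72. It was clear of TAGLN above and DCN below it, while S100A4, further down the order, reached 7.36 RPKM. DCN, S100A4, DES and PDGFRA stood at 5.30 ± 0.617, 5.19 ± 1.57, 4.22 ± 0.482 and 2.92 ± 0.428 RPKM, each overlapping its neighbour in the order except DES and PDGFRA, whose ranges were 3.80 to 4.66 and 2.67 to 3.56. CNN1 (1.55 ± 0.531), FBLN1 (1.21 ± 0.0853) and LUM (0.929 ± 0.2003) were the lowest. CNN1 and FBLN1 overlapped, and FBLN1 at 1.15 to 1.33 RPKM lay just above LUM at 0.696 to 1.14 RPKM.

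The 4 genes on which most of the results turn lie on 3 mouse chromosomes (mm10, GENCODE vM21). Lum (chr10:97565128-97572703) and Dcn (chr10:97479609-97518143), both on the plus strand, are neighbours with 46985 bases and 0 protein-coding genes between them, and they are neighbours in the rat annotation too. Fbln1 spans chr15:85205949-85286535 and S100a4 spans chr3:90603771-90606045, both on the plus strand.

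Promoters of 6 of the 10 genes were found in a RefSeq table for the rat (GRCr8), from 250 bases before to 50 after the start of the gene. Shown are the 100 bases before the start for S100a4 and Lum, which rose in rats, and for Pdgfra, which did not pass the test; capitals mark a motif found by a search of the whole window on both strands, at most 1 of each here.
S100a4 (chr2:178388429-178388528, plus strand): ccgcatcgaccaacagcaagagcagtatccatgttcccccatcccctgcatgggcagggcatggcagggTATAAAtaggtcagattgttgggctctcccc
Lum (chr7:34245606-34245705, plus strand): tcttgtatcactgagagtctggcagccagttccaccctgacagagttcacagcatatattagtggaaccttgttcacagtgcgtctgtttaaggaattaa
Pdgfra (chr14:33408517-33408616, minus strand): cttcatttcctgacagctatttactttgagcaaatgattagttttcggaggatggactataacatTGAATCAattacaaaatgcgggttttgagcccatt
The motifs searched were the TATA motif (TATAAA), the AP-1 motif (TGA, any base, then TCA), the GC box (GGGCGG) and the CArG box bound by serum response factor, and they do not overlap here. The CArG box was searched only as CC, then 6 bases of A or T, then GG. Of 33469 rat promoters of the same length, 14.2%, 7.33%, 33.1% and 1.64% held them. S100a4 held the TATA motif 31 bases before its start and Pdgfra held the AP-1 letters 35 bases before its start. The Des promoter held 3 GC boxes, and in Acta2, Cnn1 and Lum no exact match was found in this window. Acta2 held ccctatatgg and ccttgtttgg, which each differ from the searched CArG pattern by 1 base. These matches describe letters only.

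In mice, 2 of the 10 markers rose in KO animals, both matrix genes, and none fell. FBLN1, the elastic fibre and basement membrane protein fibulin 1, was 2.45 times and LUM, the collagen-binding proteoglycan lumican, was 2.02 times the WT mean. By limma with Benjamini-Hochberg adjustment over all symbols, 4.32% of 17376 symbols were called in either direction and 3.5% were called higher. The PDGF receptors, the contractile genes, DES, DCN and S100A4 did not pass the test.

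FBLN1 had scaled values of 0.274, 0.305, 0.245 and 0.280 in KO mice 3, 5, 6 and 8, and of 0.124, 0.112, 0.106 and 0.108 in WT mice 1, 2, 4 and 7. Every KO mouse lay above every WT mouse by a wide margin. On the log2(value + 1) scale the difference was 0.20 (SE 0.0144, limma adjusted p = 0.00229), and on the reads recovered from the scaled values, where low genes are not compressed by the added 1, it was 1.28 (SE 0.104, edgeR adjusted p = 8.04e-06).

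LUM had scaled values of 0.0935, 0.0947, 0.0885 and 0.118 in KO mice 3, 5, 6 and 8, and of 0.0543, 0.0608, 0.0360 and 0.0440 in WT mice 1, 2, 4 and 7. The groups did not overlap here either, but the values rest on 52 to 198 reads per mouse. The difference was 0.067 on the log2(value + 1) scale (SE 0.0109, limma adjusted p = 0.0206) and 1.03 on recovered reads (SE 0.177, edgeR adjusted p = 0.00227). Without WT mouse 4, KO mouse 5 or WT mouse 7 the limma adjusted p of LUM was 0.0548, 0.0555 and 0.0582. Without KO mouse 3 it was 0.0470, and that of FBLN1 was 0.00770. Over all symbols with a read, 8.41% had every KO mouse above every WT mouse, as these 2 of the 10 markers did.

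DCN, the proteoglycan decorin, gave 0.986, 0.825, 0.629 and 0.877 in KO mice 3, 5, 6 and 8 and 0.736, 0.584, 0.692 and 0.619 in WT mice 1, 2, 4 and 7. KO mice 3, 5 and 8 exceeded all WT mice, and KO mouse 6 lay among the WT mice. The difference on recovered reads was 0.31 (95% interval 0.027 to 0.59) and did not pass (limma adjusted p = 0.297, edgeR adjusted p = 0.179). On the log2(value + 1) scale it was 0.14 with all mice and 0.099 without KO mouse 3 (limma adjusted p = 0.493).

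PDGFRA had scaled values of 0.796, 0.847, 0.761 and 0.691 in KO mice 3, 5, 6 and 8 and of 0.578, 0.771, 0.568 and 0.572 in WT mice 1, 2, 4 and 7. WT mouse 2 stood apart from the other WT mice and inside the KO range. The limma adjusted p was 0.199 with all mice, 0.0416 without WT mouse 2 and 0.338 without KO mouse 3. On recovered reads the log2 difference was 0.30 (95% interval 0.092 to 0.51, edgeR adjusted p = 0.0753). PDGFRB, marker of pericytes and mesangial cells, was 1.08 ± 0.0635 (SD, n = 4) in KO and 0.957 ± 0.131 (SD, n = 4) in WT mice (limma adjusted p = 0.427, edgeR adjusted p = 0.348).

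The contractile genes overlapped between genotypes in mice. ACTA2 was 1.19 ± 0.168 (SD, n = 4) in KO and 1.13 ± 0.378 in WT mice, TAGLN was 1.04 ± 0.0837 and 0.961 ± 0.189, and CNN1, calponin 1 of differentiated smooth muscle, was 0.0863 ± 0.0133 and 0.0904 ± 0.0309. Their limma adjusted p were 0.930, 0.778 and 0.962. The 95% intervals of their log2 differences on recovered reads, -0.50 to 0.64, -0.18 to 0.37 and -0.60 to 0.39, leave room for changes of either sign. DES, the intermediate filament desmin of muscle and pericytes, was 0.366 ± 0.0316 against 0.338 ± 0.0410 (limma adjusted p = 0.650, edgeR adjusted p = 0.607). S100A4 was 0.0957 ± 0.0211 against 0.0648 ± 0.0194, 1.48 times the WT mean, and also missed the threshold (limma adjusted p = 0.277, and 0.235 without KO mouse 3). Its log2 difference on recovered reads was 0.55 (95% interval 0.090 to 1.003, edgeR adjusted p = 0.141).

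**Figure D1:**
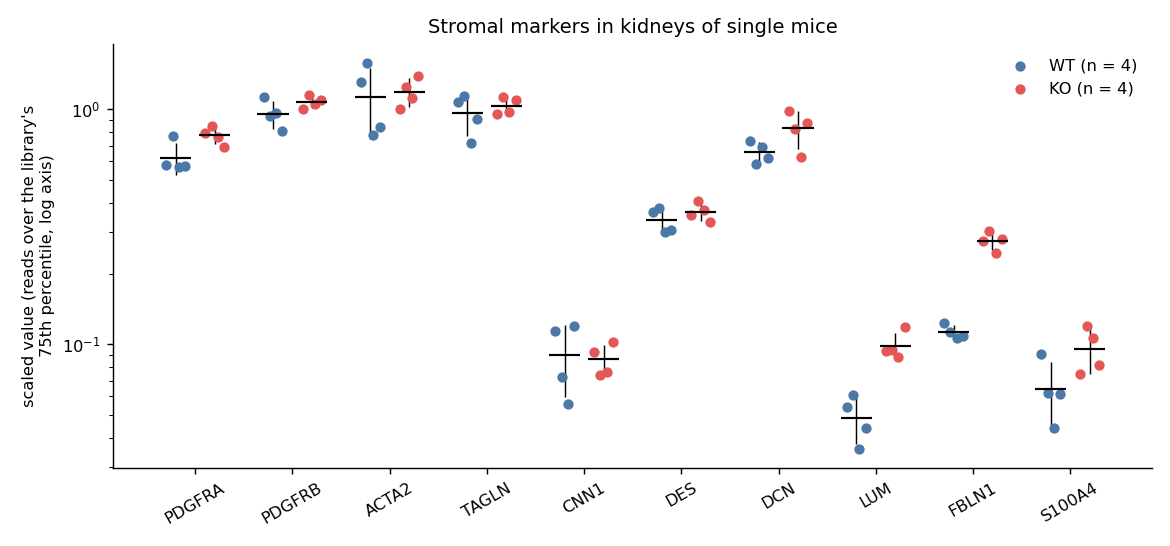
Scaled values (reads over the 75th percentile of the library, log axis) of the 10 markers in single mice, WT in blue and KO in red, n = 4 each; horizontal bars are means and vertical lines are 1 SD. The KO and WT points separate for FBLN1 and LUM and overlap for the other 8 markers.

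In rats, 6 of the 9 markers measured rose in KO animals and none fell, led by the matrix gene DCN at 3.16 times the WT mean, LUM at 2.29, FBLN1 at 2.14 and S100A4 at 2.002 times. PDGFRB at 1.16 and DES at 1.236 times the WT mean also passed, by small amounts, while PDGFRA, TAGLN and CNN1 did not. The test was the quasi-likelihood one of edgeR, adjusted by Benjamini-Hochberg, and it called 27.5% of 11584 symbols in either direction and 15.2% as higher in rat KO. In a bulk sample, a larger number of stromal cells and more RNA of these genes per cell cannot be told apart, and neither can fewer cells from less RNA.

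DCN ranged from 70.4 to 153 CPM with a median of 125 CPM in the 8 KO rats and from 25.1 to 55.6 CPM with a median of 33.6 CPM in the 8 WT rats. The lowest KO rat lay above the highest WT rat. The log2 difference was 1.66 (95% interval 1.26 to 2.06, edgeR adjusted p = 1.22e-05). FBLN1 ranged from 4.47 to 9.23 CPM (median 6.71) in KO and from 2.41 to 3.64 CPM (median 3.22) in WT rats, again without overlap, with a log2 difference of 1.09 (95% interval 0.80 to 1.38, edgeR adjusted p = 3.01e-05).

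LUM was the lowest of the rat markers. It ranged from 0.607 to 0.988 CPM (median 0.798) in KO and from 0.111 to 0.564 CPM (median 0.364) in WT rats. The groups did not overlap, on 19 to 32 reads per KO rat and 3 to 18 reads per WT rat, and the log2 difference was 1.17 (95% interval 0.64 to 1.70, edgeR adjusted p = 0.00251). Over all symbols with a read, 3.39% had every KO rat above every WT rat, and DCN, FBLN1 and LUM were the markers among them.

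S100A4 ranged from 6.84 to 17.1 CPM (median 10.8) in KO and from 4.40 to 7.78 CPM (median 5.65) in WT rats. The upper KO values stood well clear while the lower ones reached into the WT range. The log2 difference was 1.003 (95% interval 0.56 to 1.44, edgeR adjusted p = 0.00197).

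PDGFRB ranged from 54.7 to 70.2 CPM (median 65.6) in KO and from 49.9 to 61.7 CPM (median 55.2) in WT rats, with a log2 difference of 0.21 (95% interval 0.085 to 0.34, edgeR adjusted p = 0.0155). Most KO rats lay above most WT rats, with overlap. DES ranged from 12.6 to 21.8 CPM (median 17.2) against 11.8 to 16.2 CPM (median 13.5), with a log2 difference of 0.31 (95% interval 0.082 to 0.53, edgeR adjusted p = 0.0407). That call was lost on leaving out any of 10 of the 16 rats and in limma-voom, where the adjusted p was 0.0507.

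PDGFRA was 80.2 ± 12.2 CPM (SD, n = 8) in KO and 76.1 ± 6.47 CPM in WT rats (edgeR adjusted p = 0.544). TAGLN was 38.4 ± 6.98 CPM against 32.5 ± 4.59 CPM (edgeR adjusted p = 0.131), and without KO rat 18, the lowest of the KO rats, its adjusted p was 0.0220. CNN1, with 28 to 52 reads per rat, was 1.14 ± 0.229 CPM against 1.28 ± 0.234 CPM (95% interval of the log2 difference -0.48 to 0.16, edgeR adjusted p = 0.468).

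**Figure D2:**
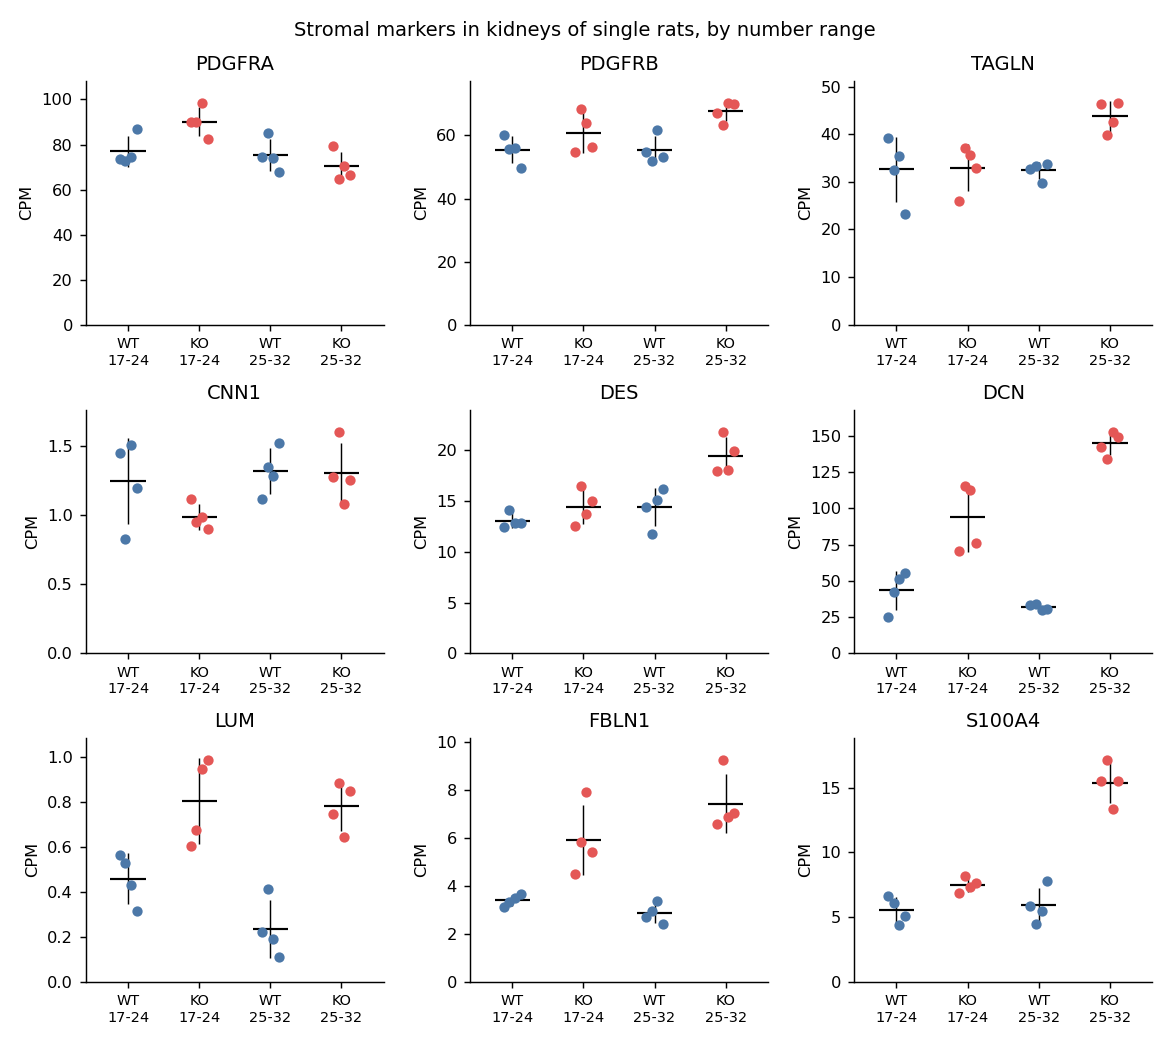
CPM of the 9 markers in single rats by number range, WT in blue and KO in red, n = 4 in each of the 4 groups; horizontal bars are means, vertical lines are 1 SD, and each panel starts at 0. DCN and S100A4 separate most in rats 25 to 32, where KO means were 145 and 15.4 CPM against 31.9 and 5.90 CPM in WT.

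The pooled comparison held animals of both number ranges, and the count of called markers was unequal between them. In rats 17 to 24, 1 of the 9 markers was called, FBLN1, which rose; in rats 25 to 32, 7 were called and all 7 rose: DCN, LUM, S100A4, FBLN1, DES, TAGLN and PDGFRB. In rats 17 to 24, 7.26% of 11610 symbols were called in either direction and 5.07% higher, and in rats 25 to 32 it was 43.8% of 11633 and 21.8% higher. How many of all symbols parted the genotypes within a range was not counted, so gaps within a range describe values only. With number range as a covariate over all 16 rats, the same 6 markers as in the pooled fit were called.

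DCN stood at 70.4, 115, 113 and 76.3 CPM in KO rats 18, 20, 22 and 24 and at 25.1, 42.4, 50.9 and 55.6 CPM in WT rats 17, 19, 21 and 23. In the upper range it stood at 142, 134, 153 and 149 CPM in KO rats 26, 28, 30 and 32 and at 33.2, 34.04, 30.1 and 30.5 CPM in WT rats 25, 27, 29 and 31. The KO rats of the upper range were all above those of the lower range, and in both ranges KO and WT rats did not overlap. The log2 difference was 1.11 (95% interval 0.42 to 1.80, edgeR adjusted p = 0.0742, DESeq2 adjusted p = 0.00542) in rats 17 to 24 and 2.18 (95% interval 2.02 to 2.33, edgeR adjusted p = 4.60e-08) in rats 25 to 32. The difference between these changes, tested as an interaction in 1 model of 4 groups, was 1.07 (95% interval 0.49 to 1.65, edgeR adjusted p = 0.0179).

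S100A4 stood at 6.84, 8.20, 7.32 and 7.63 CPM in KO rats 18, 20, 22 and 24 and at 6.60, 6.07, 4.40 and 5.05 CPM in WT rats 17, 19, 21 and 23. It stood at 15.5, 17.1, 13.4 and 15.5 CPM in KO rats 26, 28, 30 and 32 and at 5.84, 4.50, 5.46 and 7.78 CPM in WT rats 25, 27, 29 and 31. Only a narrow gap parted the genotypes in the lower range, whereas KO rats of the upper range exceeded all other rats. The log2 difference was 0.45 (edgeR adjusted p = 0.0633, and 0.0312 without WT rat 17) in rats 17 to 24 and 1.39 (edgeR adjusted p = 7.54e-05) in rats 25 to 32, and the interaction was 0.94 (95% interval 0.49 to 1.39, edgeR adjusted p = 0.00889). The gene was thus 1.36 times the WT mean in 1 range and 2.61 times in the other.

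These were the 2 of 9 markers whose genotype difference itself differed between the ranges, where the same interaction was called for 14.7% of 11839 symbols. FBLN1 was 1.74 times the WT mean in rats 17 to 24 (log2 difference 0.80, edgeR adjusted p = 0.0115) and 2.61 times in rats 25 to 32 (1.38, edgeR adjusted p = 7.67e-05), with an interaction of 0.58 (edgeR adjusted p = 0.0978, and 0.0335 without KO rat 22). LUM was 1.75 times the WT mean in rats 17 to 24 (0.82, edgeR adjusted p = 0.111) and 3.34 times in rats 25 to 32 (1.64, edgeR adjusted p = 0.00333). The interaction of LUM was 0.82 (edgeR adjusted p = 0.211). Its mean hardly differed between the KO groups, 0.806 ± 0.192 CPM and 0.782 ± 0.109 CPM (SD, n = 4 each), while the WT means were 0.460 ± 0.112 CPM and 0.234 ± 0.129 CPM.

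TAGLN, DES and PDGFRB passed in rats 25 to 32 with KO means of 1.22 to 1.35 times the WT means. TAGLN was 39.8 to 46.5 CPM in KO and 29.8 to 33.8 CPM in WT rats of that range, without overlap (log2 difference 0.43, 95% interval 0.27 to 0.60, edgeR adjusted p = 0.00104). In rats 17 to 24 it was 25.999 to 37.1 CPM against 23.3 to 39.2 CPM (log2 difference 0.024, edgeR adjusted p = 0.960), with full overlap. The interaction of TAGLN was 0.41 (edgeR adjusted p = 0.128), and 0.54 (edgeR adjusted p = 0.0180) without WT rat 23.

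DES was 17.98 to 21.8 CPM in KO and 11.8 to 16.2 CPM in WT rats 25 to 32 (log2 difference 0.44, edgeR adjusted p = 0.00874). PDGFRB was 63.4 to 70.2 CPM in KO and 52.1 to 61.7 CPM in WT rats 25 to 32 (log2 difference 0.29, edgeR adjusted p = 0.00736). KO and WT values of both genes did not overlap in this range, where 21.8% of all symbols were called higher. They overlapped in rats 17 to 24, where the log2 differences were 0.15 and 0.14 (edgeR adjusted p = 0.397 and 0.335). The interactions of DES and PDGFRB were 0.29 and 0.15 (edgeR adjusted p = 0.184 and 0.365). CNN1 did not pass in either range, with log2 differences of -0.32 and -0.017 (edgeR adjusted p = 0.503 and 0.950). The interaction of CNN1 was 0.30 (edgeR adjusted p = 0.494).

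PDGFRA was the receptor that was not called higher in rats 25 to 32. It stood at 82.4 to 98.3 CPM in KO and 72.7 to 87.0 CPM in WT rats 17 to 24, and at 64.6 to 79.3 CPM in KO and 68.0 to 85.0 CPM in WT rats 25 to 32. The KO mean was above the WT mean in the lower range and below it in the upper, and neither difference passed (log2 0.24 and -0.10, edgeR adjusted p = 0.0692 and 0.389). Without WT rat 23 the former passed, with an adjusted p of 0.0137. The interaction was -0.33 (95% interval -0.58 to -0.087, edgeR adjusted p = 0.0625) and passed on leaving out WT rat 23, KO rat 26 or WT rat 31, with adjusted p of 0.0255, 0.0261 and 0.0392.

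**Figure D3:**
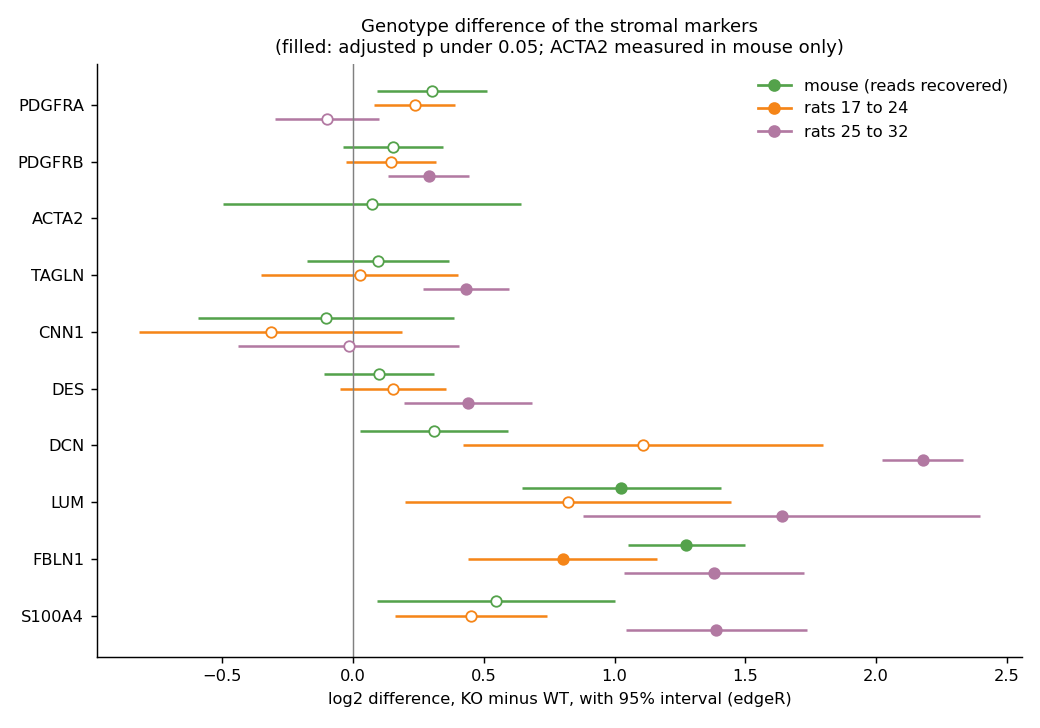
Log2 difference, KO minus WT, of each marker with its 95% interval by edgeR, in mice on recovered reads (green), rats 17 to 24 (orange) and rats 25 to 32 (purple); filled points had an adjusted p under 0.05. DCN reaches 2.18 in rats 25 to 32 against 0.31 in mice, while FBLN1 is filled in all 3 comparisons.

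Without the knockout, the markers were not called as different between the number ranges. Of the 9 markers, 0 passed between WT rats 25 to 32 and WT rats 17 to 24 by edgeR and 0 by limma-voom, with 2 at an unadjusted p under 0.05 in edgeR and 1 in limma-voom, where 21.1% of 11839 symbols were called. The 2 were LUM, with a log2 difference of -0.87 (edgeR adjusted p = 0.0859), and DCN, with -0.45 (edgeR adjusted p = 0.121), both lower in the upper range. DCN passed without WT rat 17 (adjusted p = 0.00875) and LUM passed without WT rat 27 (adjusted p = 0.0167).

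Ratios of reads within a library do not depend on how libraries are scaled, and they are given here as a description. By this measure DCN and FBLN1 stood higher against PDGFRB in KO rats. Reads of DCN over reads of PDGFRB were 0.801 ± 0.293 (SD, n = 4) in WT and 1.52 ± 0.237 in KO rats 17 to 24, and 0.580 ± 0.0701 in WT and 2.14 ± 0.0270 in KO rats 25 to 32. The 4 KO rats of the upper range lay between 2.12 and 2.18. In mice the ratio was 0.691 ± 0.0652 in WT and 0.774 ± 0.163 in KO animals, with overlap.

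FBLN1 over PDGFRB was 0.118 ± 0.0115 in WT and 0.256 ± 0.0177 in KO mice, and 0.0513 ± 0.00509 in WT and 0.110 ± 0.0236 in KO rats 25 to 32. S100A4 over PDGFRB was 0.107 ± 0.0279 in WT and 0.228 ± 0.0330 in KO rats 25 to 32. TAGLN over PDGFRB overlapped between genotypes in mice and in both ranges of rats, at 0.590 ± 0.0736 in WT and 0.647 ± 0.0376 in KO rats 25 to 32. The receptors shifted against each other in 1 group: PDGFRB over PDGFRA was 0.969 ± 0.0859 in KO rats 25 to 32 and had means of 0.677 to 0.741 in the other 3 rat groups.

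**Figure D4:**
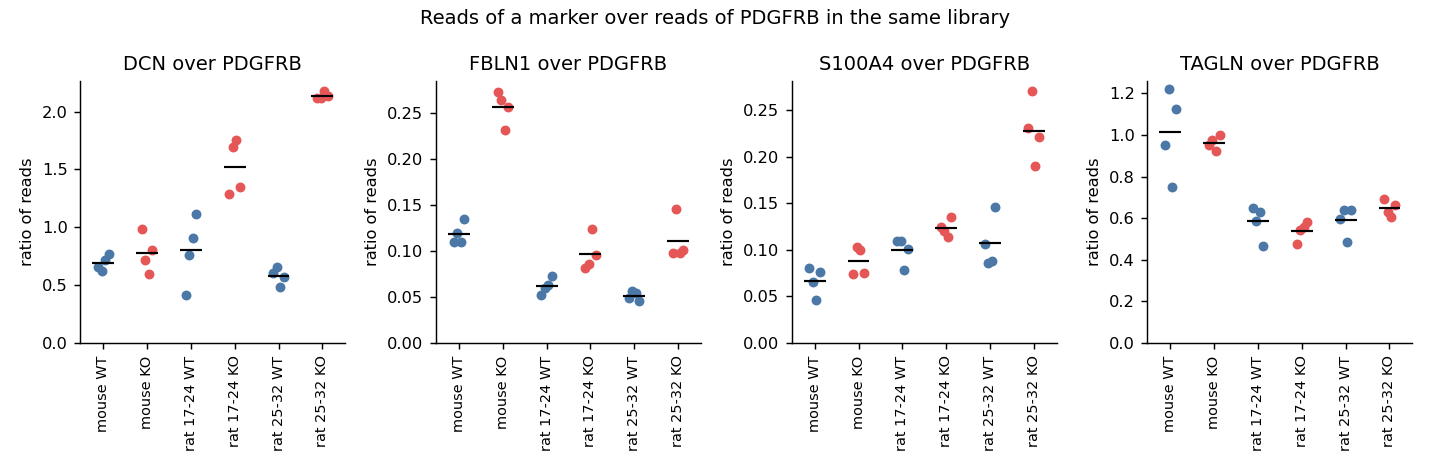
Reads of DCN, FBLN1, S100A4 and TAGLN over reads of PDGFRB in the same library, WT in blue and KO in red, n = 4 per group, with horizontal bars for means. DCN over PDGFRB is highest in KO rats 25 to 32, at 2.12 to 2.18, and TAGLN over PDGFRB overlaps between genotypes throughout.

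The change of DCN was larger in the rats than in the mice. Title prefixes also differed between the mouse and rat sets and ages were not given, so species cannot be told apart from other differences. By edgeR the log2 difference of DCN was 1.11 (95% interval 0.42 to 1.80) in rats 17 to 24. It was 2.18 (2.02 to 2.33) in rats 25 to 32 and 0.31 (0.027 to 0.59) in mice on recovered reads. In a limma fit of both species on log2(value + 1) of alike scaled values, the difference between the changes, rat less mouse, was 0.84 for DCN (SE 0.173, 95% interval 0.48 to 1.19, limma adjusted p = 0.00752), and in limma-voom on the reads it was 1.39 (adjusted p = 0.0133). The fit called 3 of 9 markers and 3.17% of 11216 symbols. The other 2, LUM (-0.053, limma adjusted p = 0.000635) and FBLN1 (-0.096, limma adjusted p = 0.0232), were also refitted. With 0.1 added in place of 1, LUM was still called (-0.29, limma adjusted p = 0.00705) and FBLN1 was not (-0.27, limma adjusted p = 0.198). In limma-voom the species difference of LUM was 0.24 (adjusted p = 0.742) and that of FBLN1 was -0.18 (adjusted p = 0.682), and the ratios of KO to WT were 2.02 and 2.45 in mice and 2.29 and 2.14 in rats.

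Of 77 genes in 8 related lists, 14 rose and 0 fell in KO mice, where 3.5% of all symbols were called higher and 4.32% in either direction. In rats 16 of the 59 tested rose and 5 fell, where 15.2% of all symbols were called higher and 27.5% in either direction. Medians of the log2 difference over the related genes were 0.019 in mice and 0.10 in rats, against 2.5e-05 and -0.020 over all symbols tested. Of the genes of fibroblasts and activated fibroblasts, 6 of 16 rose in mice, and 7 of 12 rose in rats with 1 fall. COL3A1, COL1A1 and COL1A2, the chains of fibrillar collagens, rose in both species. In mice their log2 differences on recovered reads were 1.67, 1.16 and 0.83 (edgeR adjusted p = 3.23e-05, 0.000683 and 3.79e-05). In rats they were 0.89, 0.72 and 0.42 (edgeR adjusted p = 0.000157, 0.00213 and 0.00916). By range, COL3A1 and COL1A1 were called in both, and COL1A2 only in rats 25 to 32.

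The matrix glycoprotein FN1, fibronectin, and PDPN, podoplanin, rose in both species too, in rats by 0.68 and 0.97 on the log2 scale (edgeR adjusted p = 0.00117 and 3.26e-05) and in mice by 0.83 and 0.50 on recovered reads (edgeR adjusted p = 0.00919 and 0.00205). By range, PDPN was called in both ranges of rats and FN1 only in rats 25 to 32. PDPN is a gene of podocytes as well. Of the fibulin and elastic fibre genes, 4 of 10 rose in mice and 2 of 8 in rats, with EFEMP2 and FBN1, fibrillin 1, among them in both. The shares of all symbols called higher were 3.5% in mice and 15.2% in rats. EFEMP2 lost its limma call in mice on leaving out any of the 8 mice, KO mouse 3 included (limma adjusted p = 0.0609). FN1 did so without WT mouse 1, WT mouse 2, KO mouse 5 or KO mouse 6, and kept it without KO mouse 3 (limma adjusted p = 0.0460). In rats EFEMP2 and FBN1 each lost the call on leaving out any of 8 rats. By range, EFEMP2 was called in both and FBN1 in neither.

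GLI1, the transcription factor of hedgehog signalling that marks a perivascular fibroblast population, rose in the pooled rats by 1.55 on the log2 scale (edgeR adjusted p = 0.00420). By range, GLI1 was called only in rats 25 to 32, with 2.29 (edgeR adjusted p = 0.000823). In mice it gave 0.015 on recovered reads (edgeR adjusted p = 0.982). SERPINE2, a protease inhibitor listed for mesangial cells, moved in opposite directions, up in mice by 1.07 on recovered reads (edgeR adjusted p = 0.00214) and down in rats with a log2 difference of -0.42 (edgeR adjusted p = 0.00184). By range, the fall of SERPINE2 was called only in rats 25 to 32.

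Of 12 contractile genes, 0 passed in mice by limma, by edgeR or by DESeq2, with 3 at an unadjusted p under 0.05 in each. In the pooled rats 2 of 9 rose, where 15.2% of all symbols were called higher and 27.5% in either direction. In rats 25 to 32, 4 of these 9 rose and 1 fell, where 21.8% of all symbols were called higher and 43.8% in either direction. Of 12 pericyte and mural genes, 0 passed in mice by limma with 1 at an unadjusted p under 0.05, while ANGPT1, an angiopoietin made by pericytes, passed on recovered reads with a log2 difference of -0.41 (edgeR adjusted p = 0.0255). In rats 1 of 11 rose and 1 fell, the latter again ANGPT1 with -0.59 (edgeR adjusted p = 0.0118). By range, ANGPT1 was called only in rats 25 to 32, with -0.98 (edgeR adjusted p = 0.00448).

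DCN and LUM are small leucine-rich proteoglycans, a family that organises collagen fibrils. Of the 3 others tested in rats, 0 rose by edgeR in the pooled comparison, with 2 at an unadjusted p under 0.05, and 1 rose by limma-voom, while DESeq2, which tested 8, also called 1 higher. OGN, osteoglycin, fell with a log2 difference of -0.61 (edgeR adjusted p = 0.0119), and 1 of the 3 rose in rats 25 to 32. By range, OGN was called only in rats 17 to 24, with -0.73 (edgeR adjusted p = 0.0139). In mice 0 of 9 passed by limma, with 3 at an unadjusted p under 0.05, and 2 rose by edgeR and by DESeq2 on recovered reads. Of the 4 PDGF ligands, 0 passed in mice by limma, by edgeR or by DESeq2, with 2 at an unadjusted p under 0.05 in each. In rats 1 of 4 fell. The pooled rat comparison called 27.5% of all symbols in either direction and 15.2% higher, and that of rats 25 to 32 called 43.8% and 21.8%. NT5E, the ecto-5′-nucleotidase of cortical fibroblasts and proximal tubules, fell in rats with a log2 difference of -0.49 (edgeR adjusted p = 0.00686). By range, NT5E was called only in rats 25 to 32, with -0.76 (edgeR adjusted p = 0.000111).

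Other S100 genes were also called higher in rats. Of 8 tested, 4 rose in the pooled comparison, where 15.2% of all symbols were called higher and 27.5% in either direction. In rats 25 to 32, 5 of the 8 rose, where these shares were 21.8% and 43.8%. There S100A10 and S100A11 had log2 differences of 2.09 and 1.82 (edgeR adjusted p = 6.07e-07 and 6.37e-07). In rats 17 to 24 they were 0.64 and 0.41 (edgeR adjusted p = 0.00296 and 0.0423). In mice 2 of 9 rose, where 3.5% of all symbols were called higher. S100A11 was among them, by 0.58 on recovered reads (edgeR adjusted p = 0.000262). These S100 genes are active in epithelium and leukocytes as well as in stroma.

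**Figure D5:**
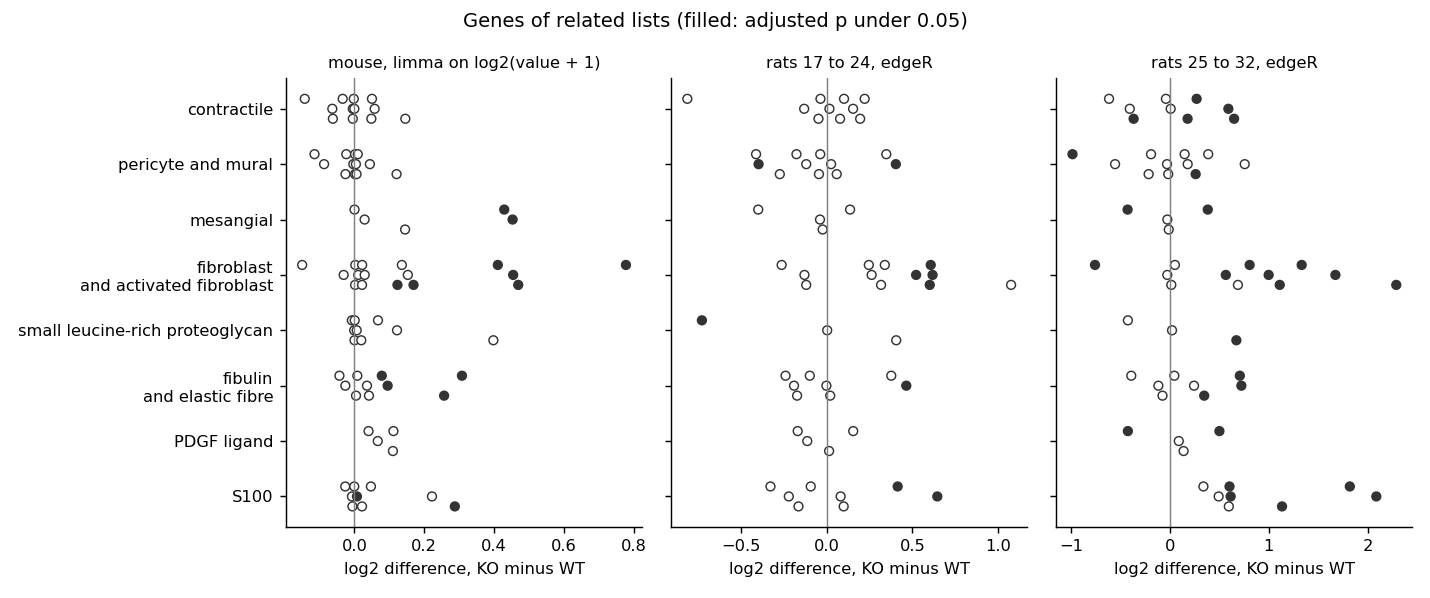
Log2 difference, KO minus WT, of single genes of 8 related lists in mice (limma on log2(value + 1)), rats 17 to 24 and rats 25 to 32 (edgeR), with a separate x axis for each panel; filled points had an adjusted p under 0.05. Of the contractile genes 0 are filled in mice and 5 in rats 25 to 32, and the fibroblast genes hold 6 filled points in mice and 8 in rats 25 to 32.

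Markers of other cells moved in the same animals. The summed scaled value of 8 macrophage genes was 4.15 to 4.92 in KO and 2.77 to 2.93 in WT mice, and 5 of the 8 rose by limma. In rats their sum was 176 to 198 CPM in KO and 112 to 147 CPM in WT rats 17 to 24, and 336 to 493 CPM in KO and 159 to 202 CPM in WT rats 25 to 32, with 7 of 8 called higher in the pooled edgeR fit. KO rats 25 to 32 had the highest sums, as they had the highest S100A4 and DCN. Of 8 lymphocyte genes, the 5 tested in rats rose, while MS4A1 had 0 to 13 reads. For all symbols tested, the share called higher was 3.5% in mice and 15.2% in the pooled rats.

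Of 7 proximal tubule genes tested in rats, 5 fell, with sums of 7846 to 10499 CPM in KO and 11636 to 17426 CPM in WT animals. Of 7 endothelial genes, 1 fell in all rats together, with sums of 490 to 646 CPM in KO and 585 to 691 CPM in WT animals. In rats 25 to 32, 4 of the 7 fell, and the sums of 490 to 528 CPM in KO and 585 to 641 CPM in WT animals did not overlap, while in rats 17 to 24 1 fell. Podocyte sums were 547 to 1009 CPM in KO and 674 to 1120 CPM in WT rats, with 0 of 6 called by edgeR, by DESeq2 or by limma-voom and 0 at an unadjusted p under 0.05 in each. In rats 25 to 32 alone, 2 of the 6 fell by edgeR and by limma-voom and 4 by DESeq2. Among all symbols tested by edgeR, 27.5% were called in either direction and 15.2% higher in the pooled rats. In rats 25 to 32 it was 43.8% and 21.8%, and in rats 17 to 24 it was 7.26% and 5.07%. The part of tissue composition in the values of DCN, LUM, FBLN1 and S100A4 was not tested.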

How the data were processed

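Poly(A) libraries (TruSeq Stranded mRNA) were sequenced from 24 kidneys. The submitters' processing notes name STAR 2.7.3, DESeq2 1.24.0, R 3.6.1, bcl2fastq 2.20 and the builds mm10 and rn5; how reads were counted was not given in the sources used here. The deposited mouse values are a signal that the authors scaled: (reads + 0.5) over the 75th percentile of the library + 0.5, from which whole reads were recovered for 99.0% of values (within 0.01). The deposited rat values are expected counts, here reads plus 1 over 6, with 97.7% whole after this offset was taken off and the rest rounded.

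Mouse values were tested with limma 3.58.1 (trend, robust) on log2(value + 1) without a filter. This understates changes of low genes, so edgeR on recovered reads is given beside it for the markers. Rat reads were tested with edgeR 4.0.16 (quasi-likelihood, TMM, filterByExpr, robust), and printed CPM use TMM library sizes. All p-values were Benjamini-Hochberg adjusted over all symbols tested, at 0.05. A printed CPM or scaled value covers spread between animals; depth sets the reads behind it. Alternatives were a pseudocount of 0.1, filters, DESeq2 1.42.0, limma-voom, size factors, number range or 1 surrogate variable (sva 3.50.0) as covariates, and leaving out each animal. Scripts were tested on simulated data. Named genes were the 10 markers, CTNS, related genes called in both species, and the 3 largest rises and falls per species. The markers and lists were chosen with earlier results of these data known.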

Additional observations from a re-analysis of the deposited data

Results flagged for a closer look

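PDGFRA in WT mouse 2 had a scaled value of 0.771, apart from 0.568 to 0.578 in the other 3 WT mice. This was the 1 lone sample among 38 groups of 4 to 8 animals examined, where chance gives about 1 in 20 groups.

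The genotype difference of DCN and of S100A4 differed between the number ranges of rats, by 1.07 and 0.94 on the log2 scale (change in rats 25 to 32 minus change in rats 17 to 24, edgeR interaction). What else differs between the ranges was not stated.

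The genotype difference differed between species on the log2(value + 1) scale for DCN (rat minus mouse 0.84), LUM (-0.053) and FBLN1 (-0.096) by limma. In limma-voom on the reads DCN was called (1.39, adjusted p = 0.0133). There LUM (0.24, adjusted p = 0.742) and FBLN1 (-0.18, adjusted p = 0.682) were not. Species cannot be told apart from other differences between the mouse and rat sets.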

How the results depend on the processing

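Counts of called markers depended in part on the setting. In mice 2 were called; 1 was called with a mean scaled value of at least 0.1 required, since LUM lies below it, and 1 to 3 on leaving out each mouse in turn. In rats 17 to 24 it was 1 in edgeR, 3 in DESeq2 (DCN and S100A4 added), 2 in limma-voom, and 1 to 2 on leaving out each rat. The rat count was 5 to 7, that of rats 25 to 32 was 7, the interaction count 2 to 4, the count between WT ranges 0 to 1 and the species count 2 to 3 on leaving out each animal. The species count was 1 in limma-voom, where LUM turned to 0.24. Values near 0 turned sign. CNN1 between species gave -0.0054 with 0.1 added in place of 1 and -0.037 in limma-voom, and TAGLN between WT ranges gave 0.027 in limma-voom; the cause was not tested. On leaving out each animal, log2 differences ran from -0.023 to 0.15 for ACTA2, -0.0031 to 0.10 for TAGLN and -0.020 to 0.0077 for CNN1 in mice, from -0.11 to 0.12 for TAGLN in rats 17 to 24, from -0.13 to 0.068 for CNN1 in rats 25 to 32, and from -0.011 to 0.017 for CNN1 between species. Between WT ranges they ran from -0.094 to 0.035 for PDGFRA, -0.071 to 0.041 for PDGFRB, -0.14 to 0.092 for TAGLN, -0.068 to 0.20 for CNN1 and -0.085 to 0.21 for S100A4. No paired analysis was possible because the labels do not say which KO and WT animals were littermates. Low reads limit LUM and CNN1 in rats.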
